A study of Mus musculus with 6 samples.

Results

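Rab GTPases are small membrane-bound switches that direct vesicle traffic, and the genes examined here were all rows of the count table whose symbol is Rab followed by digits and at most 2 letters. This rule took 51 of the 13709 genes of the table. Of these, 49 encode Rab GTPases, and Rab3ip and Rab5if were taken in by their symbols although they do not. Tregs, Foxp3-expressing CD4+ T cells that hold other T cells in check, were sorted as CD4+YFP+CD25+ cells, and bulk RNA-Seq of 3 WT and 3 KO samples on the C57BL/6 background was counted. WT was Foxp3Cre and KO was Foxp3Cre Zfp335fl/fl, so that both groups carried YFP and Cre made from the Foxp3 locus, and Cre could delete the floxed Zfp335 gene only in cells that use or had used that locus. The mice were 2 weeks old per the study's methods, and the labels gave both lymph nodes and spleen as the source. The sources do not say if mice were pooled, so p-values measure the spread between these samples, which may be technical in part. The comparison asked how gene expression of Tregs differs when Zfp335, a zinc finger transcription factor, is deleted. The study reported early lethal autoimmune inflammation in KO mice. It attributed the loss of Treg signatures in these mice to inflammation, as a secondary effect. Loss of Zfp335 within Tregs and inflammation of the KO mice cannot be told apart in these samples.

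A Rab protein is inactive with GDP bound and active with GTP bound. Guanine nucleotide exchange factors (GEFs) load GTP, GTPase-activating proteins (GAPs) end the active state, and in its active state a Rab recruits effectors such as tethers and motor adaptors to 1 kind of membrane. A prenyl tail anchors the protein in the membrane, and GDP dissociation inhibitor (GDI) takes the inactive form back to the cytosol. In T cells these proteins are known for carrying receptors to and from the cell surface and for the release of secretory granules.

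The targeted gene Zfp335 (chromosome 2, 164891882 to 164911757, mm10) stood at 94.3 to 103 CPM, the count of a gene scaled to library size, in WT samples, and KO samples at 37.0 to 40.2 CPM, in the direction of the labels. The opposite-strand gene Pcif1 covers 23.3% of the exons of Zfp335, so the level of Zfp335 is uncertain. The libraries held 32032631 to 40728419 counts. WT replicate 3 stood somewhat apart, and over the 50 Rab genes tested its median distance from the mean of the other WT samples was 0.181 on the log2 scale, against 0.135 between those samples. Over all genes tested these medians were 0.23 and 0.147. The distance of WT replicate 3 was the larger in 29 of the 50 Rab genes (58.0%), against 61.8% of all genes. Of the 7 Treg and T cell markers, all present, Ikzf2 and Foxp3 were lower in KO, and Foxp3 was at 738.1, 642.1 and 1190 CPM in WT replicates 1 to 3 and at 460 to 472 CPM in KO. Markers of other cells moved with genotype too. All 8 myeloid markers tested were higher in KO, with a summed level of 14.3 to 26.5 CPM in WT and 60.5 to 66.4 CPM in KO. S100a8 and S100a9 had 0 counts in every WT sample. In single-cell data from younger mice, the study reported S100a8 and S100a9 as high in a Treg cluster that accumulated in KO. Of the NK cell markers, Klrb1c and Eomes rose and the summed level was 3.59 to 5.83 CPM in WT and 14.9 to 16.2 CPM in KO. Of the 2 CD8 T cell markers Cd8a rose, and their summed level was 9.32 to 13.2 CPM in WT, a range that held all KO values. Of the 6 B cell markers Cd79b fell (summed 18.7 to 20.7 against 12.8 to 13.7 CPM), and of the 4 stromal markers tested Col1a2 fell. Nearly all of the stromal sum was Pecam1, which was not called (means of 196.7 and 136.6 CPM), and the other 3 markers summed to 4.75 to 6.64 CPM in WT against 3.31 to 3.94 CPM in KO. None of the 4 dendritic cell and 5 erythroid markers tested was called, with summed levels of 1.67 to 4.18 and 23.3 to 101 CPM in WT and 2.79 to 3.46 and 43.2 to 49.8 CPM in KO. The part of other cells in the results on Rab genes was not tested. In bulk RNA, fewer cells that express a gene and less RNA per cell cannot be told apart.

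KO Tregs had more RNA of 6 Rab genes and less of 4 others, and the share of the family that passed the test was not above that of all genes. Calls required a fold change over 1.5, a p below 0.05 and an adjusted p below 0.1 in edgeR's quasi-likelihood test, with Benjamini-Hochberg adjustment over 13594 genes. Of the 51 Rab genes, 50 passed the filter on low counts, and 10 were called (20.0%), against 24.4% of all genes tested. Rab39b, Rab4a, Rab19, Rab8a, Rab3d and Rab8b rose, which is 6 of 50, against 11.9% of all genes. Rab6b, Rab37, Rab3a and Rab2b fell, which is 4 of 50, against 12.5%. In 25 of the 50 genes no KO value fell within the WT range or the reverse, against 53.8% of all genes. With no limit on fold change, 22 of the 50 had an adjusted p under 0.1, against 47.0%. The median log2 fold change of the 50 genes was 0.07, and that of all genes was -0.04. Rab44, the 1 gene under the filter, had 6, 0 and 1 counts in WT and 23, 36 and 8 counts in KO and was not tested. It was called, higher in KO, in the 5 alternatives in which it passed the filter.

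**Figure D1:**
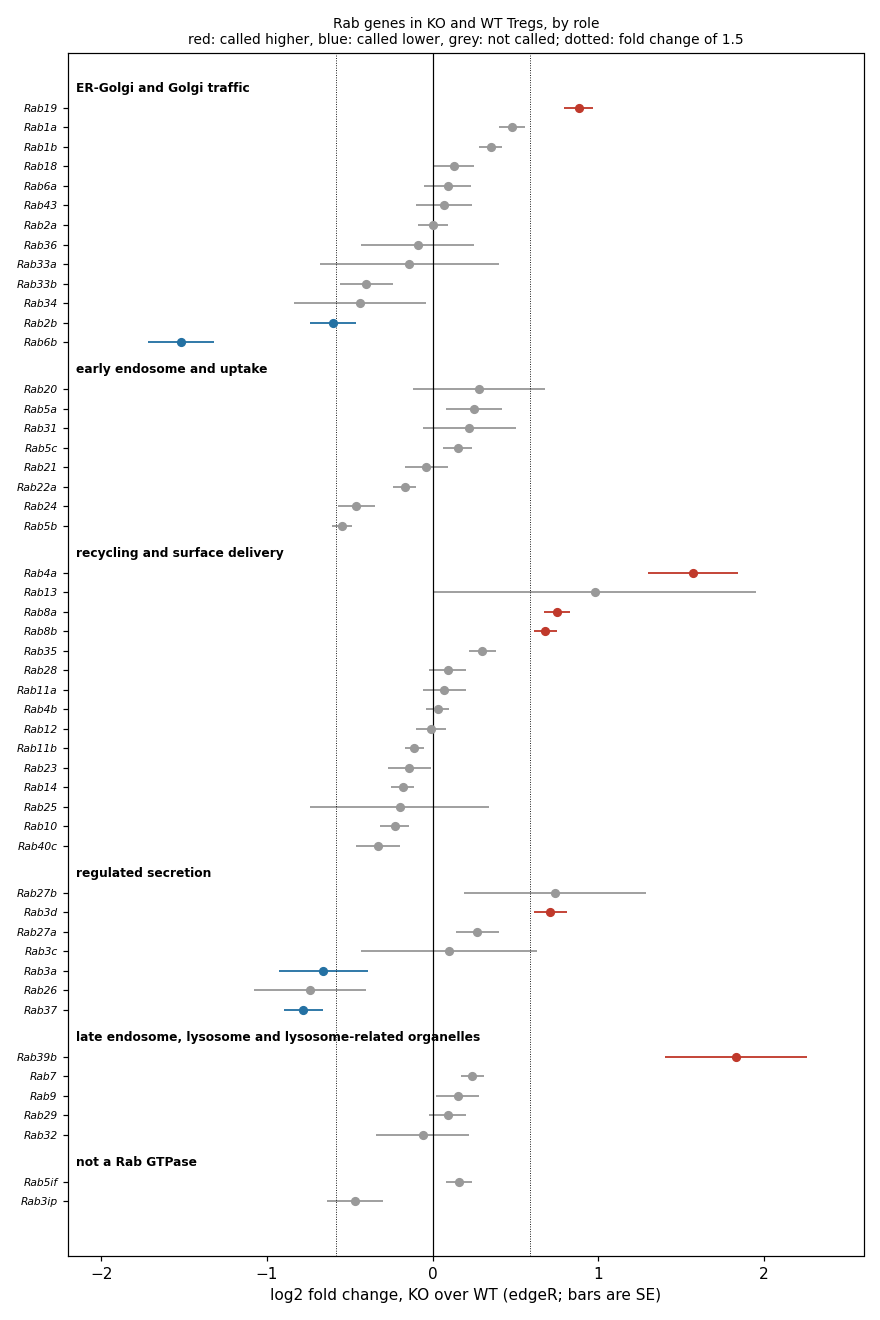
The x axis gives the log2 fold change of KO over WT for each of the 50 Rab genes tested, with SE bars, grouped by role. Rab39b and Rab4a lie farthest to the right at 1.83 and 1.57, Rab6b lies farthest to the left at -1.52, and no gene of the early endosome group is called.

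The summed expression of all 51 genes averaged 2847 ± 160.8 CPM (SD, n = 3) over WT and 3072 ± 11.4 CPM (SD, n = 3) over KO samples. WT replicate 3, at 3025 CPM, lay between the other WT samples, at 2713 and 2804 CPM, and the KO samples, at 3058 to 3079 CPM. Compared per length, as CPM per kb of exon, Rab5c of early endosomes was the highest in WT at 79.3, followed by Rab7 of late endosomes at 73.4 and Rab1b of ER-to-Golgi transport at 60.9. Rab10 and Rab8b were next at 40.5 and 40.3. Calls were not limited to rare transcripts. Of the 10 genes with a WT mean of at least 100 CPM, 3 were called. Between 10 and 100 CPM it was 4 of 26, and between 1 and 10 CPM 3 of 9. Of all genes tested 24.4% were called, a share that was not split by level. None of the 5 genes with a WT mean under 1 CPM (Rab13, Rab25, Rab27b, Rab33a and Rab3c) was called, and their SEs of 0.53 to 0.97 on the log2 scale were the widest of the 50 genes tested.

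**Figure D2:**
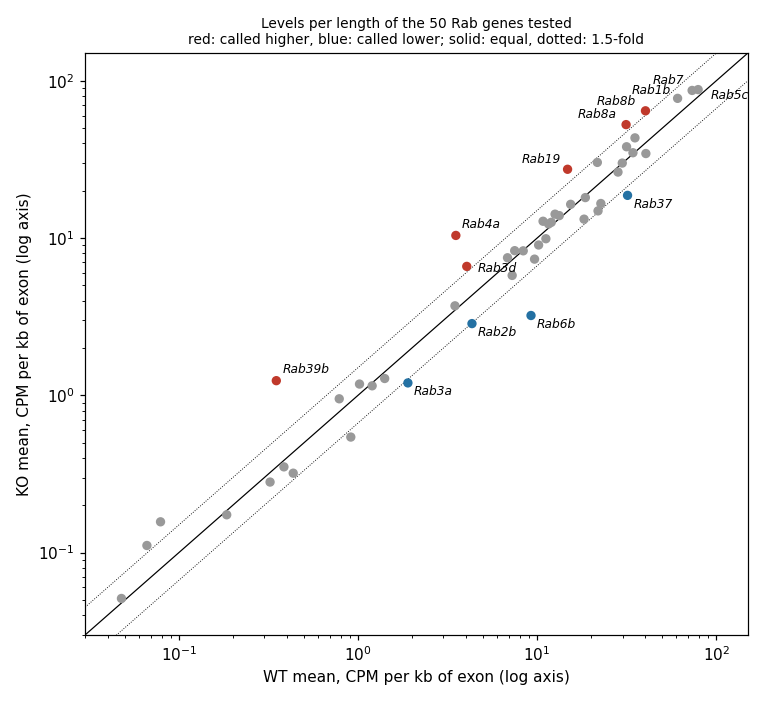
Each point is 1 of the 50 Rab genes tested, with its mean WT level on the x axis and its mean KO level on the y axis, both in CPM per kb of exon on log axes. Rab8a and Rab8b are called at high levels, Rab39b is called at 0.35 in WT and 1.24 in KO, and the 3 genes of highest level, Rab5c, Rab7 and Rab1b, lie inside the dotted lines of a 1.5-fold difference.

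The clearest rise at high expression was in the Rab8 genes, which serve delivery from the Golgi and recycling endosomes to the cell surface. Rab8a (chromosome 8) was at 141.4, 140.7 and 158.7 CPM in WT replicates 1 to 3 and at 257.5, 237.0 and 244.9 CPM in KO replicates 1 to 3. Rab8b (chromosome 9) was at 178.0, 196.0 and 198.6 CPM in WT and at 306.5, 305.1 and 303.8 CPM in KO. In both genes every KO sample was above every WT sample, by more than the range within either group. Rab8a had a log2 fold change of 0.75 (SE 0.08, edgeR adjusted p 0.000318) and Rab8b one of 0.68 (SE 0.07, edgeR adjusted p 0.000316). In a stricter test, glmTreat with 1.5 in place of 1 as the null fold change, Rab8a was called and Rab8b was not, with adjusted p 0.214. Of the 50-base stretches of these transcripts, 1.07% of Rab8a and 5.46% of Rab8b also occurred in other genes, and none was shared between the pair.

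Rab8a and Rab8b moved together from separate chromosomes, so the 250 bases before the RefSeq transcription start of each (GRCm38.p6) are shown, beside those of Rab39b, the largest rise among the 50 genes tested. Capitals mark matches on either strand to 6 motifs, and no marked matches overlap. The CCAAT box was searched by those letters. The GC box was searched for as GGGCGG. The Ets core was searched for as CCGGAAG. The E-box was searched for as CACGTG. The letters of the AP-1 site were TGANTCA. Those of the cAMP response element were TGACGTCA. The windows lie at chr8:72160950-72161199 (+), chr9:66919706-66919955 (-) and chrX:75578232-75578481 (-).
Rab8a: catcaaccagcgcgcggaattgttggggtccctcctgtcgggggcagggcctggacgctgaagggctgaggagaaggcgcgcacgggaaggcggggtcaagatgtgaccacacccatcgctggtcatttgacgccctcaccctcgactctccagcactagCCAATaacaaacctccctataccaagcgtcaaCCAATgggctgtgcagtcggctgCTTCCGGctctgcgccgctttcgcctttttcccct
Rab8b: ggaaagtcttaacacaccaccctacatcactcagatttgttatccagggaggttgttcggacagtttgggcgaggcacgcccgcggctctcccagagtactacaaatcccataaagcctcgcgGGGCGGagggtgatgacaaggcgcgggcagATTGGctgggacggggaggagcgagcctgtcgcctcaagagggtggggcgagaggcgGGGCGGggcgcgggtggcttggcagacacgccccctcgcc
Rab39b: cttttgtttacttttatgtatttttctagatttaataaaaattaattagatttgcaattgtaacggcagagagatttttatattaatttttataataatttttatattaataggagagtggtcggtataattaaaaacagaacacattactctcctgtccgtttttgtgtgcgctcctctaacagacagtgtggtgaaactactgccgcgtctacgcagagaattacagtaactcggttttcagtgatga
The Rab8a window held 2 CCAAT boxes and an Ets core, and the Rab8b window held a CCAAT box between 2 GC boxes. The Rab39b window held none of the 6 motifs and had 31.6% G and C and 8 CpG pairs, against 61.6% and 18 for Rab8a and 64.4% and 20 for Rab8b. Over 52 such windows matched to 43 of the 51 genes, 22 held a CCAAT box and 35 a GC box, while 33.8% and 32.7% of all 32851 windows did. An AP-1 site was found in 1 of the 52 windows (6.75% of all windows), an E-box in 5 (6.02%), a cAMP response element in 2 (1.55%) and an Ets core in 4 (6.91%). The 32851 windows were not limited to genes of the count table or matched on G and C content. Some Rab genes had more than 1 window, so no enrichment is read from these counts. These matches describe letters in a window, not binding.

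Among the other genes of recycling and surface delivery, Rab4a, which returns receptors from early endosomes to the surface, rose and its near relative Rab4b did not pass the test. Rab4a was at 7.25, 7.76 and 3.51 CPM in WT and at 17.5, 19.0 and 18.5 CPM in KO. All KO samples were above all WT samples, with WT replicate 3 the lowest. Rab4a had a log2 fold change of 1.57 (SE 0.27, edgeR adjusted p 0.00313), and 1.29 without WT replicate 3 (adjusted p 6.68e-07). Rab4b was at 64.8 to 73.0 CPM in WT and 67.8 to 69.4 CPM in KO, and 80.3% of its 50-base stretches also lie in the overlapping gene model Gm21983, so its level is uncertain. In this group 3 of 15 genes rose and none fell (20.0% called, against 24.4% of all genes). The median log2 fold change of the group was 0.03. Rab35, of fast recycling, had a log2 fold change of 0.30 (SE 0.08, edgeR adjusted p 0.0163), under the fold limit. Rab11a and Rab11b, of the recycling endosome, were not called, at 0.07 and -0.11. Neither were Rab10, at -0.23, Rab14, at -0.18, Rab12, Rab13, Rab23, Rab25, Rab28 or Rab40c. The summed level of the group was 1042 to 1129 CPM in WT and 1275 to 1281 CPM in KO, so that KO held 118.3% of the WT mean. That rise lay in Rab8a and Rab8b, since the other 13 genes summed to 722.9 to 771.8 CPM in WT and 710.7 to 738.7 CPM in KO.

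**Figure D3:**
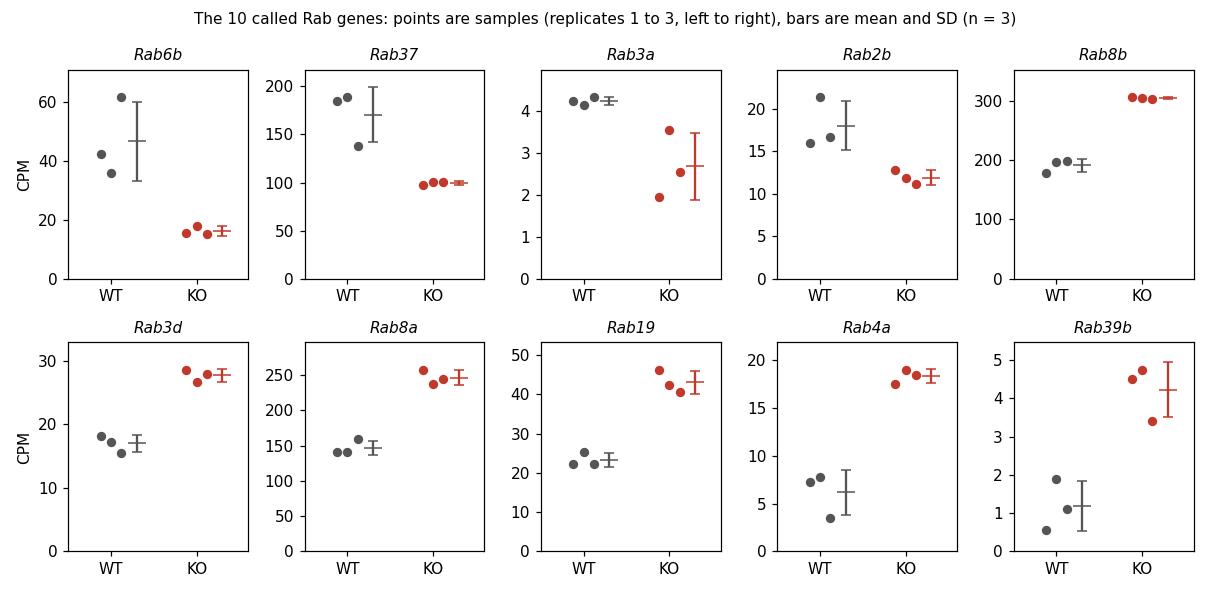
Each panel shows 1 of the 10 called Rab genes, with the CPM of the 3 WT and 3 KO samples as points (replicates 1 to 3 from left to right) and the mean with SD beside them. In no panel do the groups overlap, and the WT samples of Rab6b spread from 35.7 to 61.7 CPM.

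In ER-to-Golgi and Golgi traffic, 1 gene rose and 2 fell of 13 tested (23.1% called, against 24.4% of all genes). The median log2 fold change of the group was 0.00. The largest fall among the 50 genes tested was in Rab6b, a Golgi Rab best known from neurons. Rab6b was at 42.3, 35.7 and 61.7 CPM in WT and at 15.4, 18.0 and 15.2 CPM in KO. The lowest WT sample was above the highest KO sample, and WT replicate 3 was the highest of all. Rab6b had a log2 fold change of -1.52 (SE 0.20, edgeR adjusted p 0.000944), and -1.27 without WT replicate 3 (adjusted p 1.67e-07). Rab6a, which serves retrograde transport within and from the Golgi, overlapped between groups with means of 57.3 ± 10.8 (WT) and 61.0 ± 6.11 CPM (KO). The opposite-strand gene Mrpl48 covers 19.0% of the exons of Rab6a, so its level is uncertain.

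Rab2b, of traffic between the ER and Golgi, was at 16.0, 21.4 and 16.7 CPM in WT and at 12.8, 11.8 and 11.1 CPM in KO. The groups did not overlap, and WT replicate 2 was the farthest from KO. The difference on the log2 scale was -0.60 (SE 0.14, edgeR adjusted p 0.0128), just past the fold limit, and it was not called without WT replicate 2 (-0.46), without KO replicate 3 (-0.55), with DESeq2 (-0.58) or with RLE size factors (-0.58). Gene models on the opposite strand, Gm43766 and Tox4, cover much of its sequence, with 74.2% of its 50-base stretches also in other genes, so without strand its reads cannot be told from theirs. Rab2a, its paralog, had means of 63.8 ± 3.47 (WT) and 63.9 ± 5.72 CPM (KO).

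Rab19, another Golgi Rab, rose from 22.3, 25.3 and 22.4 CPM in WT to 46.3, 42.4 and 40.6 CPM in KO. The gap between the groups was wider than the range within each. Rab19 had a log2 fold change of 0.88 (SE 0.09, edgeR adjusted p 0.000403). Rab1a and Rab1b, which bring vesicles from the ER to the Golgi, did not overlap between groups either and stayed under the fold limit, with log2 fold changes of 0.48 (edgeR adjusted p 0.00209) and 0.35 (edgeR adjusted p 0.00855). Rab18, Rab33a, Rab33b, Rab34, Rab36 and Rab43 were not called. Of the 50-base stretches of Rab43, 90.3% also lie in the overlapping gene model Gm45140, and 20.8% of those of Rab33b occur in other genes. The levels of Rab43 and Rab33b are therefore uncertain.

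None of the 8 genes of the early endosome and uptake group was called, against 24.4% of all genes. Their median log2 fold change was 0.06. Rab5b was at 88.0, 94.5 and 93.0 CPM in WT and at 62.5, 63.0 and 62.4 CPM in KO. The samples of each genotype lay close together and far from the other genotype. Its log2 fold change of -0.55 (SE 0.06, edgeR adjusted p 0.000552) was just under the fold limit, and it was called with library totals alone, at -0.59. Its relatives Rab5a and Rab5c, which like it drive fusion of early endosomes, had log2 fold changes of 0.25 and 0.15 and overlapped between groups. Rab24, which is linked to autophagy, had a log2 fold change of -0.46 (edgeR adjusted p 0.0124). The opposite-strand gene Prelid1 covers 62.4% of the exons of Rab24, so the value of Rab24 is uncertain. Rab20, Rab21, Rab22a and Rab31, of uptake and endosome sorting, were not called, at -0.17 to 0.28.

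In regulated secretion, 1 gene rose and 2 fell of 7 (42.9% called, against 24.4% of all genes). The median log2 fold change of the group was 0.10. Rab37, a Rab of secretory granules, was at 184.9, 189.1 and 138.4 CPM in WT and at 97.2, 100.2 and 100.9 CPM in KO. WT replicate 3 lay nearest to KO but above all of its samples. Rab37 had a log2 fold change of -0.78 (SE 0.12, edgeR adjusted p 0.00175), and -0.92 without WT replicate 3 (adjusted p 5.44e-09).

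The Rab3 genes, known from synaptic and granule exocytosis, went in opposite directions. Rab3d was at 18.2, 17.3 and 15.5 CPM in WT and at 28.6, 26.6 and 27.9 CPM in KO. Every KO sample was above every WT sample, with a log2 fold change of 0.71 (SE 0.10, edgeR adjusted p 0.00125). Rab3a was at 4.24, 4.14 and 4.33 CPM in WT and at 1.94, 3.53 and 2.55 CPM in KO. The groups did not overlap, but KO was uneven, and the log2 fold change of -0.66 (SE 0.27, edgeR adjusted p 0.0906) had the highest adjusted p of the 10 calls. Rab3a was not called without WT replicate 1 (adjusted p 0.155), WT replicate 2 (0.139), KO replicate 1 (0.248) or KO replicate 3 (0.213).

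Rab27a, which brings cytotoxic and other lysosome-related granules to the plasma membrane, was at 108.4, 109.2 and 149.7 CPM in WT and at 151.7, 143.4 and 148.5 CPM in KO. WT replicate 3 alone overlapped with KO. Over all samples Rab27a had a log2 fold change of 0.27 (SE 0.13, edgeR adjusted p 0.129), and 0.44 (adjusted p 1.98e-05) without that sample, still under the fold limit. The summed level of the secretion group was 311.6 to 324.0 CPM in WT and 278.1 to 282.7 CPM in KO, 88.3% of the WT mean. Without Rab37 the direction of the sum turned, and the other 6 genes summed to 134.5 to 173.2 CPM in WT and 177.9 to 185.5 CPM in KO. Most of that sum was Rab27a, which was not called (means of 122.4 CPM in WT and 147.9 CPM in KO). Of the 6 genes, Rab3a and Rab26 were lower in KO. Rab26 had a log2 fold change of -0.74 (SE 0.34, edgeR adjusted p 0.123), with groups that did not overlap, and was called at -1.05 without KO replicate 2. Rab27b and Rab3c were under 1 CPM in WT and not called.

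Of the 5 genes of late endosomes, lysosomes and related organelles, only Rab39b was called (20.0%, against 24.4% of all genes). Their median log2 fold change was 0.15. Rab39b, an X-linked Rab known mainly from neurons, was at 0.57, 1.89 and 1.11 CPM in WT and at 4.52, 4.75 and 3.40 CPM in KO. Its level was low in all samples, and every KO sample was above every WT sample. KO exceeded WT by 1.83 on the log2 scale (SE 0.43, edgeR adjusted p 0.0121), and it was 1.49 without WT replicate 1 and 2.33 without WT replicate 2. The antisense gene model Gm15063 shares 16.2% of its 50-base stretches, and without strand reads of the 2 cannot be told apart. Rab7, which guides late endosomes to lysosomes, had a log2 fold change of 0.24 (SE 0.07, edgeR adjusted p 0.0287), and Rab9, Rab29 and Rab32 overlapped between groups. The rows that are not Rab GTPases, Rab3ip, which is a GEF of Rab8, and Rab5if, were not called, at -0.47 and 0.16. Of the 50-base stretches of Rab5if, 47.5% also lie in the opposite-strand gene Sla2, so the value of Rab5if is uncertain.

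Because related Rab proteins often share effectors, the balance between relatives was compared within each sample, as the log2 ratio of CPM + 1 in 15 pairs. WT and KO ratios overlapped in 7 pairs and not in the other 8, beside 53.8% of all single genes without overlap, so nothing is read from that count. With 3 samples against 3, the two-sided exact permutation test cannot go below 0.1, and the smallest p adjusted over the pairs was 0.188, so no pair could pass. The ratio of Rab6a to Rab6b moved most, from 0.22, 0.56 and 0.17 in WT to 1.83, 1.64 and 2.09 in KO. That of Rab4a to Rab4b was -3.16, -2.91 and -3.87 in WT and -1.92, -1.82 and -1.82 in KO. Rab6b and Rab4a were the called members of these pairs. The mean ratio of Rab3a to Rab3d differed by -1.21, that of Rab8a to Rab10 by 0.97, that of Rab5a to Rab5b by 0.82, that of Rab5b to Rab5c by -0.70 and that of Rab2a to Rab2b by 0.55. The ratio of Rab10 to Rab13 differed by -0.43, and by -0.57 with a pseudocount of 0.5, as Rab13 was under 1 CPM and its ratio rests largely on the pseudocount. Rab8a to Rab8b was among the overlapping pairs, at -0.38 ± 0.09 in WT and -0.31 ± 0.06 in KO (exact permutation p 0.4, SD, n = 3).

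**Figure D4:**
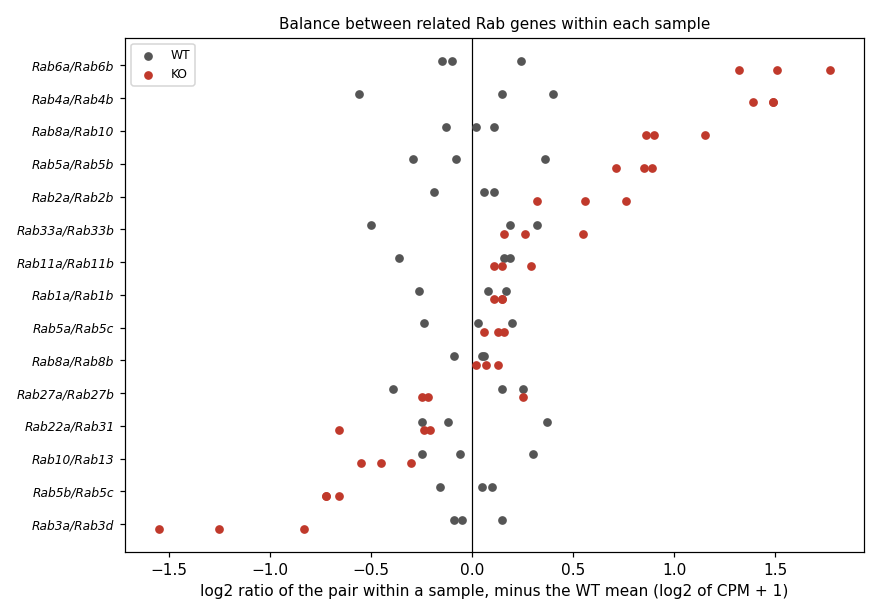
For each of 15 pairs of related Rab genes, the x axis gives the log2 ratio of the pair (CPM + 1) in each sample minus the WT mean of that pair, with WT in grey and KO in red. Rab6a/Rab6b and Rab4a/Rab4b lie farthest to the right in KO, Rab3a/Rab3d lies farthest to the left, and Rab8a/Rab8b overlaps around 0.

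Of called genes acting on Rab proteins and averaging 5 CPM or more, the effector Sytl3 and GAP Tbc1d2 had the highest log2 fold changes. The GAPs Tbc1d16 and Tbc1d4 had the lowest. Of 137 listed regulators and effectors, 131 were tested and 24 were called (18.3%), 10 higher and 14 lower in KO, beside 24.4% of all genes. Their median log2 fold change was -0.06. Of 13 genes for prenylation, GDI and membrane insertion, 1 was called (7.69%). Rabggta and Rabggtb, the subunits of the enzyme that prenylates Rab proteins, were not. Rabac1, which frees Rab proteins from GDI, was at 45.6, 49.3 and 73.7 CPM in WT and at 31.8, 34.7 and 31.3 CPM in KO. WT replicate 3 was the highest, and the log2 fold change of -0.79 (SE 0.18, edgeR adjusted p 0.00992) became -0.54, under the fold limit, without it.

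Among 34 GEFs, 2 rose and 3 fell (14.7% called, against 24.4% of all genes). Dennd5a, which acts on Rab39 proteins, rose from 122.1 ± 17.9 to 249.2 ± 4.81 CPM (log2 fold change 1.03), and Dennd4c, which acts on Rab10, rose from 31.5 ± 4.43 to 51.9 ± 3.02 CPM (0.72). Dennd6b fell from 58.3 ± 5.51 to 28.3 ± 1.83 CPM (-1.04), and Sbf2 and the Rab5 family activator Rin3 had log2 fold changes of -0.68 and -0.64. Rin3 was not called with offsets for GC content and length (-0.50). In these 5 genes the groups did not overlap, with edgeR adjusted p between 0.00023 and 0.00203.

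Among 34 GAPs, 1 rose and 5 fell (17.6% called, against 24.4% of all genes). Their median log2 fold change was -0.17, against -0.04 over all genes. Tbc1d2, also called Armus and known as a GAP of Rab7, was at 9.70, 9.32 and 6.07 CPM in WT and at 34.6, 34.0 and 31.1 CPM in KO. KO was far above WT in every sample, with a log2 fold change of 1.99 (SE 0.18, edgeR adjusted p 0.000193). Tbc1d4, also called AS160 and known as a GAP of Rab8, Rab10 and Rab14, was at 352.7, 348.3 and 204.3 CPM in WT and at 101.8, 94.2 and 99.8 CPM in KO. WT replicate 3 was the nearest to KO and still above it. Its log2 fold change came to -1.61 (SE 0.20, edgeR adjusted p 0.00068). Tbc1d16, a GAP of Rab4a, fell from 27.2 ± 7.47 to 8.80 ± 1.44 CPM (-1.63, edgeR adjusted p 0.00122), and Evi5, a GAP of Rab11, fell from 6.76 ± 1.37 to 3.31 ± 0.616 CPM (-1.03, edgeR adjusted p 0.0112). Rabgap1l and Tbc1d10c were called lower too.

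Among 50 effectors, 7 rose and 5 fell (24.0% called, against 24.4% of all genes), with a median log2 fold change of 0.01. The widest difference of all regulators and effectors was in Sytl3, a synaptotagmin-like partner of Rab27 in granule exocytosis. Sytl3 was at 4.43, 2.98 and 8.95 CPM in WT and at 83.5, 78.0 and 73.4 CPM in KO. All KO samples were far above WT, with a log2 fold change of 3.84 (SE 0.35, edgeR adjusted p 0.000208), while Rab27a itself was not called. Ehbp1l1, an effector of Rab8, rose from 107.6 ± 12.7 to 227.7 ± 6.20 CPM (1.08), and the motor Myo5a, which carries Rab27a granules, rose from 52.4 ± 2.51 to 97.0 ± 2.94 CPM (0.89). Bicd1, a dynein adaptor of Rab6, fell from 9.25 ± 0.42 to 4.53 ± 0.302 CPM (-1.03), and Rab11fip3, an effector of Rab11, fell from 22.3 ± 2.23 to 13.3 ± 0.102 CPM (-0.75). Micall1, an effector of Rab8 and Rab35, had a log2 fold change of -0.70, and -0.56 without WT replicate 3, which is under the fold limit. It overlaps 1700088E04Rik on the opposite strand, so its value is uncertain. The edgeR adjusted p of the 5 effectors after Sytl3 lay between 0.000105 and 0.00331.

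**Figure D5:**
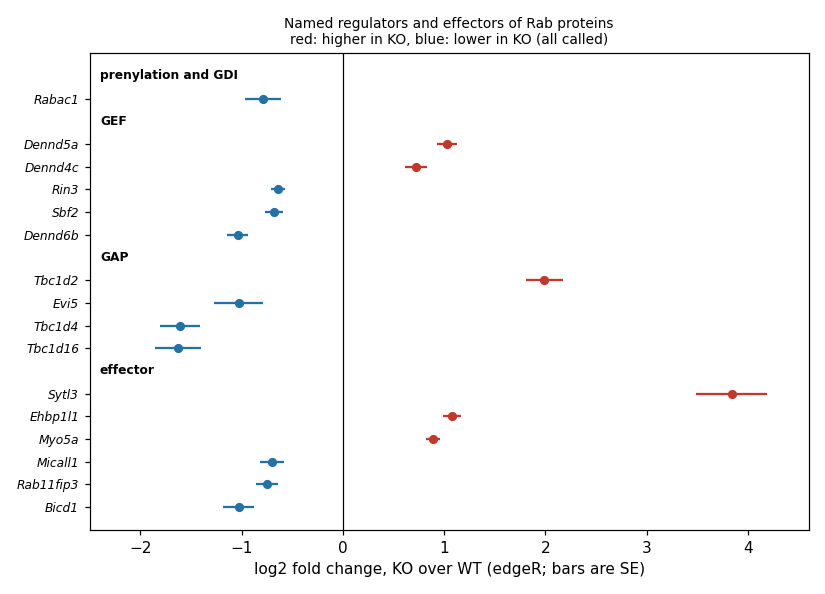
The x axis gives the log2 fold change of KO over WT, with SE bars, for the named regulators and effectors of Rab proteins, grouped by role, all of which were called. Sytl3 at 3.84 and Tbc1d2 at 1.99 lie farthest to the right, and Tbc1d16 at -1.63 and Tbc1d4 at -1.61 farthest to the left.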

How the data were processed

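RNA-Seq was done on sorted Tregs of 3 WT and 3 KO samples. The study's methods give SOAPnuke 1.5.6 for read filtering, HISAT2 against mm10 with 1 alignment kept for each read, and StringTie for expression levels. The authors deposited whole-number counts per gene, without normalization. How these whole numbers were obtained, the annotation and the use of strand were not given in the sources used here. Since 1 alignment was kept per read, reads of similar genes may be placed on the wrong copy. All sample columns were mapped to a labelled sample.

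Counts were tested with R 4.3.3 and edgeR 4.0.16 (filterByExpr with a minimum count of 10, TMM scaling with factors of 0.9796 to 1.037, glmQLFit and glmQLFTest, two-sided, no covariate), with the study's cutoffs. SE is the log2 fold change divided by the square root of F. CPM is a gene's count relative to its TMM-scaled library, given with the SD over samples. A level of 3 counts was 0.0747 to 0.0913 CPM, a limit for counting error alone, as PCR duplicates are not separate molecules. Alternatives were DESeq2 1.42.0, other scalings and filters, other cutoffs, single samples left out, a replicate block and, added after the data were seen, offsets for GC content and length. No batch was given in the labels.

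Roles, regulator lists and pairs were written from general knowledge. Members and lists were chosen with earlier results of these data known. All Rab genes could be named. Of each regulator list, called genes averaging 5 CPM or more were named, at most 3 in each direction. Rabgap1l, Tbc1d10c, Rabggta and Rabggtb were named after their values were seen. Lengths, overlaps and shared 50-base stretches came from GENCODE M21, and promoter windows from RefSeq (GRCm38.p6). The procedure was tested on simulated counts. Sums without Rab8a and Rab8b, without Rab37 and without Pecam1 were chosen after the values were seen.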

Additional observations from a re-analysis of the deposited data

How the results depend on the processing

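Rab39b, Rab4a, Rab19, Rab8a and Rab6b were called under all 15 alternatives, and Rab37, Rab3d and Rab8b under all but glmTreat, while Rab2b was called under 10 and Rab3a under 8. Zfp335 was called under all 15, at -1.42 to -1.20. The number of Rab genes called was 5 with glmTreat against a fold change of 1.5, 15 when the fold cutoff was dropped and adjusted p had to be under 0.05, and 9 to 11 otherwise and without single samples. Rab44 passed the filter and was called in 5 settings, with no low-count filter and without WT replicates 1, 2 or 3 or KO replicate 3, at 2.53 to 4.99, which rests on 0 to 6 WT counts. The regulators called were 22 to 28 without single samples. The cutoff moved the counts most, with 5244 and 1686 of all genes and 57 and 11 of the regulators called without the fold cutoff (adjusted p under 0.05) and with glmTreat. The median log2 fold change of the Rab genes was 0.012 (without KO replicate 2) to 0.13 (without WT replicate 3). Depth limits the 5 Rab genes with a WT mean under 1 CPM, whose SEs were 0.53 to 0.97.

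With the replicate number as a replicate block, 9 Rab genes were called (Rab3a lost, adjusted p 0.115) and 3190 of all genes. Samples of the same number shared no mouse, and the correlations of their deviations from the group means were 0.038, 0.04 and -0.012. Of the 6 samples, 4 correlated best with the sample of their own number in the other genotype.

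The sign turned only in Rab genes that were not called. Under other settings Rab12 was at 0.0059 (DESeq2) and 0.0057 (RLE size factors), Rab2a at -0.037 (library totals alone), -0.00053 (replicate block) and -0.077 (offsets for GC content and length), and Rab4b at -0.015 (library totals alone). Without single samples the log2 fold change ranged from -0.069 to 0.16 in Rab11a, -0.044 to 0.029 in Rab12, -0.11 to 0.46 in Rab20, -0.13 to 0.13 in Rab21, -0.52 to 0.052 in Rab25, -0.063 to 0.065 in Rab2a, -0.27 to 0.055 in Rab32, -0.53 to 0.12 in Rab33a, -0.20 to 0.49 in Rab3c, -0.086 to 0.26 in Rab43, -0.0084 to 0.085 in Rab4b and -0.0064 to 0.25 in Rab6a. The cause was not tested.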
